A study of Homo sapiens with 10 samples.

Results

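The libraries described here are 4 of the 10 in a study of PTCSC3-AS1, an antisense long non-coding RNA of the PTCSC3 locus. They were made from TPC-1, an established line of human papillary thyroid carcinoma with the RET/PTC1 fusion. The groups were cells given an empty vector (EV) and cells given a PTCSC3-AS1 overexpression vector (OE). The second deposited table holds EV replicates 4 and 5 and OE replicates 4 and 5, and these were chosen by table and number. OE replicate 4 was set against EV replicate 4 (pair 4) and OE replicate 5 against EV replicate 5 (pair 5), so that each group had n = 2 and each pair had 1 library per group. Neither the vector's promoter, the time after transfection nor the meaning of a pair is given in the labels, and separate cultures are not stated either. All p-values below thus reflect how far these particular libraries scatter, and part of that scatter may be technical.

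Depth ran from 15761474 to 17290802 counts per library, and 20769 to 21330 genes had a count. PAX8, FOXE1 and HHEX, transcription factors of the thyroid follicular lineage, were counted in all 4 libraries, whereas TSHR, SLC5A5 and NKX2-1 had 0 counts in all 4. Of the leukocyte markers, PTPRC had at most 1 count in a library and CD3D, CD3E, MS4A1, NKG7 and TYROBP had 0, and of the fibroblast markers COL1A2, COL3A1, DCN and DPT had 0. Other members of these lists were counted in every library: 42 to 60 counts of COL1A1, 54 to 77 of PDGFRB, 7 to 21 of LUM, 13 to 25 of CSF1R and 8 to 12 of CD14. No counted gene bore the name PTCSC3-AS1, so its overexpression could not be checked. PTCSC3 (ENSG00000259104, hg38 chromosome 14, 36136108 to 36176468, minus strand) had 0 counts in all 4 libraries. So had LINC00609, which overlaps it on the plus strand (36070427 to 36165288). The labels of EV and OE are thus taken as given. A count of 0 allows up to 3 counts, or 0.174 to 0.190 CPM (counts scaled to library size) by library, a limit that covers counting error only.

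As background, several of the gene groups measured here answer quickly to signals inside the cell. Type I interferons act through a receptor and a transcription factor complex that binds interferon-stimulated response elements in promoters, and induce antiviral proteins such as the OAS enzymes, IFIT proteins and ISG15. These genes also respond to foreign nucleic acid through DDX58, IFIH1 and IRF7. HMOX1 and the metallothioneins answer to oxidants and metals, and JUN, ATF3 and PPP1R15A to mitogens and stress.

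Of 40 gene lists, the interferon response held the most genes past the threshold, all of them higher in OE in both pairs (values below). The promoters of IFI6, ISG15 and OAS1, 3 of the 4 listed genes with the lowest p, are shown because these members moved together; the fourth, IRF7, had no entry in the promoter table. Each is the RefSeq window (GRCh38.p14) from 250 bases before to 50 bases after the gene start, printed on the gene's own strand: chr1:27672143-27672442 (minus strand) for IFI6, chr1:1013247-1013546 (plus strand) for ISG15 and chr12:112906712-112907011 (plus strand) for OAS1. Capitals mark matches to GAAANNGAAA, the core of an interferon-stimulated response element, searched on both strands (TTTCNNTTTC on the other) with overlapping matches kept.
IFI6: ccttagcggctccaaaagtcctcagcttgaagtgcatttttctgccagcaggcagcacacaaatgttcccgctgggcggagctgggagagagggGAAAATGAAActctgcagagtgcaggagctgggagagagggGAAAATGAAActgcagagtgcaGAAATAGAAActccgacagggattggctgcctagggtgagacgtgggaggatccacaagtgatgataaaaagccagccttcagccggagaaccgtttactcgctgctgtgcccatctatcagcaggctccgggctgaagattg
ISG15: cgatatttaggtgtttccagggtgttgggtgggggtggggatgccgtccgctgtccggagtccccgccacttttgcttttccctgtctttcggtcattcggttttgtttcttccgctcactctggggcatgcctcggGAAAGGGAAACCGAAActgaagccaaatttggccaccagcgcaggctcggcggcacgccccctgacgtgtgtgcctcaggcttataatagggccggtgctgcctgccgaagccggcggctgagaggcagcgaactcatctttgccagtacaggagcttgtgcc
OAS1: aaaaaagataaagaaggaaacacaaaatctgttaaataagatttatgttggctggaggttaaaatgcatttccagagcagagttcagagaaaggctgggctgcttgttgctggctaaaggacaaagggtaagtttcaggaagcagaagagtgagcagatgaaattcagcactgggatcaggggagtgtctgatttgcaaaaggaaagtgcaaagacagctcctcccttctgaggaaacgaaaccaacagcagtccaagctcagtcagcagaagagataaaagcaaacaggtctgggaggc
IFI6 held 3 matches, starting 156, 115 and 93 bases before the gene start, and ISG15 held 2 overlapping matches, starting 113 and 107 bases before it. The gene start here is that of RefSeq. The ISG15 gene as counted begins upstream of this window, at 1001138 on chromosome 1. No match lay in the OAS1 window, where only a spacing of 2 bases between the GAAA words was searched. The window does hold gaaacgaaa, a closer spacing of these words that the search did not count. Of all 35116 RefSeq promoters of this length, 3.57% held the motif, against 23 of the 36 tested interferon genes that had an entry (63.9%). Among the called interferon genes with an entry it was 6 of 8. A match describes letters and is neither a site nor a cause.

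Across all 14419 tested genes, 47 (0.326%) rose and 24 (0.166%) fell in OE, 71 in all (0.492%), by edgeR's quasi-likelihood test with the pair as a block and Benjamini-Hochberg adjusted p under 0.05. An unadjusted p under 0.05 was reached by 1011 genes (7.01%). Most changes were small: 51 of the 71 were below 0.5 on the log2 scale. Of the 47 higher genes 38 were higher in both pairs, and of the 24 lower genes 22 were lower in both pairs; the other 11 went opposite ways. Over all tested genes, 26.1% were higher in both pairs and 25.9% lower in both. The called genes were selected on the mean of the same pairs, so this agreement is a description. Pair 4 had the larger change in size in 51 of the 71.

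The calls rest on a spread that was estimated as common to all genes: the prior degrees of freedom came out as infinite, so that a gene's own disagreement between pairs hardly enters its p. No gene passed without the pair as a block (158 at an unadjusted p under 0.05) or with the spread estimated over all 10 libraries (241 with the number as a block, 254 with the set as a term), and DESeq2 called 2, IFI6 and AC004556.1. Leaving out a library breaks its pair, so those fits had no block either, and no gene passed in any of the 4. The loss from the missing library and that from the missing block cannot be told apart there.

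The pairs agreed little over the whole transcriptome. The log2 change within pair 4 (OE over EV, on CPM with a prior count of 2) correlated with that within pair 5 at Pearson r = -0.00368 and at a Spearman rank correlation of 0.0334 across 14419 genes, which are not independent replicates. The direction was the same for 52% of genes, with 50.6% higher in pair 4 and 49.6% in pair 5. By level, r was -0.0116 over 3309 genes of mean log2 CPM under 2, 0.0286 over 2699 genes of 2 to 4 and 0.00244 over 4639 genes of 4 to 6. It was 0.112 over 3071 genes of 6 to 8 and 0.262 over 701 genes of 8 and above. Both changes reached 0.25 upward in 523 genes (3.63%) and downward in 478 (3.32%). About as many were opposite at that size, 470 (3.26%) up in pair 4 and down in pair 5 and 498 (3.45%) the other way round. Among genes of mean log2 CPM of at least 2, 270 reached 0.5 in pair 4 and 237 in pair 5, of which 11 did so in both in the same direction and 14 in opposite directions. Both OE libraries lay above both EV libraries in 12.7% of tested genes and below both in 12.3%. The median SD of a gene's change over the pairs was 0.116, next to a median absolute change of 0.123 in pair 4 and 0.115 in pair 5.

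**Figure D1:**
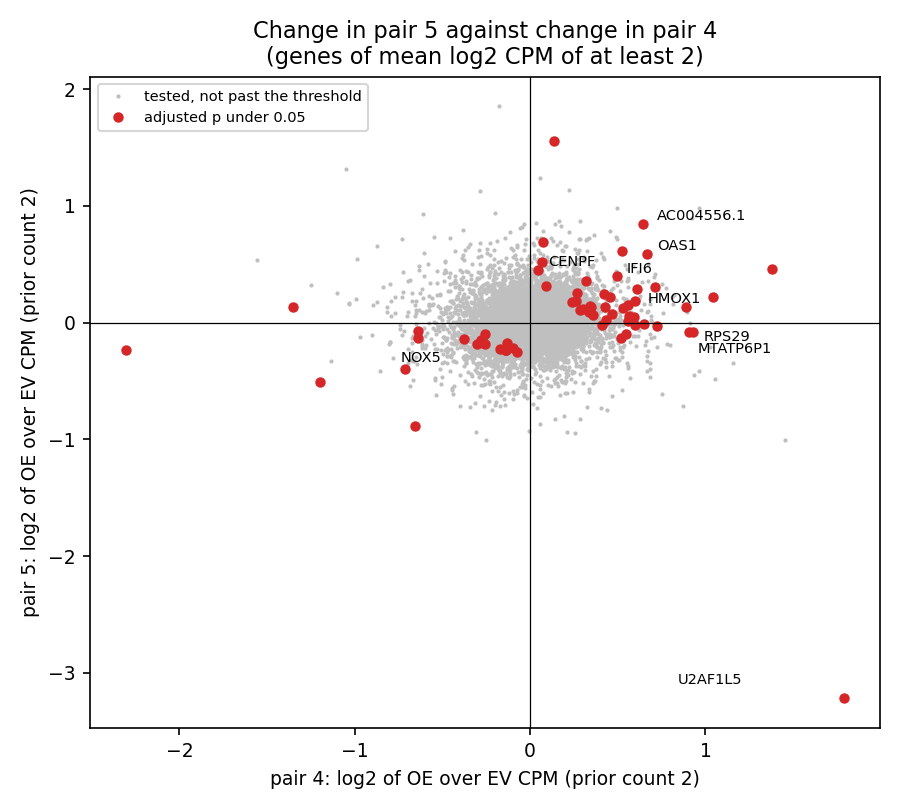
Change of each gene in pair 5 (vertical axis) against its change in pair 4 (horizontal axis), as log2 of OE over EV CPM, for the 11110 tested genes of mean log2 CPM of at least 2. Red points are the 65 of these with adjusted p under 0.05; the grey cloud is centred on 0 without a visible slope, most red points lie to the right of 0, and U2AF1L5 lies far off in opposite directions in the pairs.

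IFI6 (ENSG00000126709, chromosome 1, 27666061 to 27672218, hg38), an interferon-induced protein of the endoplasmic reticulum and mitochondria, measured 192 CPM in EV and 271 in OE of pair 4, and 82.9 in EV and 109 in OE of pair 5. OE was above EV within each pair, but EV of pair 4 exceeded OE of pair 5, so the groups overlapped. The changes within pairs were 0.50 and 0.40, and the fit gave a log2 change of 0.45, SE 0.058, adjusted p = 2.02e-11. OAS1 (ENSG00000089127, chromosome 12, 112906777 to 112933222), which makes the messenger that activates RNase L, stood at 29.1 CPM in EV and 46.3 in OE of pair 4, and 9.36 in EV and 14.1 in OE of pair 5. Its changes were of like size in the pairs, 0.67 and 0.59 (log2 change of 0.64, SE 0.12, adjusted p = 0.000186). Both pairs showed the rise, and the groups again overlapped.

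ISG15 (ENSG00000187608, chromosome 1, 1001138 to 1014540), a ubiquitin-like modifier, was at 293 CPM in EV and 402 in OE of pair 4, and 110.0 in EV and 128 in OE of pair 5. The rise was larger in pair 4 (0.46) than in pair 5 (0.21), with a log2 change of 0.35, SE 0.054, adjusted p = 2.55e-07. IRF7 (ENSG00000185507, chromosome 11, 612553 to 615999), the transcription factor that amplifies interferon production, was at 38.6 CPM in EV and 63.3 in OE of pair 4, and 17.6 in EV and 21.7 in OE of pair 5 (log2 change of 0.54, SE 0.11, adjusted p = 0.000231). It too was higher in OE within each pair, by 0.71 and 0.30, with the 2 libraries of pair 5 below both of pair 4.

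In all, 9 of the 45 tested interferon genes rose and none fell, against 0.326% and 0.166% of all tested genes. The other 5 risers, named after their values were seen, were IFIT1 (0.25, SE 0.062), IFITM3 (0.21, SE 0.051), OAS3 (0.22, SE 0.053), PARP9 (0.34, SE 0.087) and PLSCR1 (0.29, SE 0.066), with adjusted p from 0.00466 to 0.0240. IFIT1 binds foreign RNA caps, IFITM3 blocks viral entry and OAS3 is a further RNase L activator. IFITM3 shares 35.2% of its 50-base sequence words with other genes, so its count is less certain. Most of their rise lay in pair 4: IFIT1 was 148 CPM in EV and 199 in OE of pair 4, and 64.1 in EV and 65 in OE of pair 5, a change of 0.43 against 0.019, and PARP9 changed by 0.57 and 0.055. Of the 45 members 29 were higher in both pairs and 3 lower in both, with a median change of 0.27 in pair 4 and 0.10 in pair 5, beside 0.0027 and -0.0013 over all tested genes. HELZ2 and PARP10, which are outside the list and were also named after their values were seen, rose by 0.28 and 0.25.

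The level of these genes differed more between the EV libraries than between EV and OE. EV replicate 4 was above EV replicate 5 in 43 of the 45 interferon genes, with a median ratio of 2.22, against 49.8% of all tested genes. Both OE libraries lay above both EV libraries in 2 of the 45. When OE replicate 4 was left out the fit without block gave lower values in OE for all 9 (IFI6 at -0.33, ISG15 at -0.66). The role of that difference between the EV libraries in the changes was not tested.

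**Figure D2:**
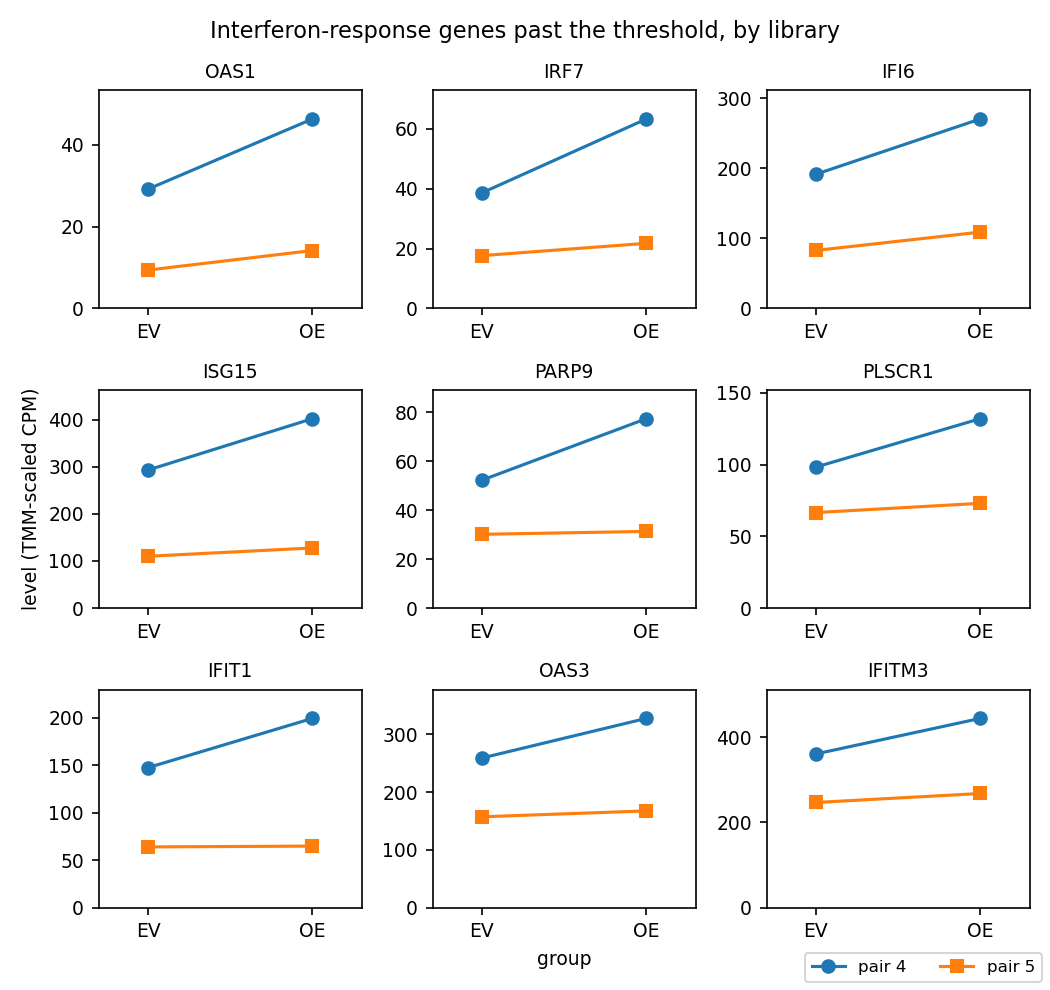
Level (TMM-scaled CPM, linear axis from 0) of the 9 interferon-response genes past the threshold, in EV and OE of pair 4 (blue circles) and of pair 5 (orange squares), 1 library per point. Lines join the libraries of a pair; every line goes up, the blue lines more steeply, and the blue EV point lies above the orange OE point in each panel.

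HLA-C, a classical class I antigen-presenting molecule, rose (log2 change of 0.22, SE 0.059, adjusted p = 0.0499), with 133 CPM in EV and 170.3 in OE of pair 4, and 108 in EV and 113 in OE of pair 5. It was the only one of 19 tested antigen-presentation genes past the threshold, where 0.326% of all tested genes rose. Of the 19, 9 were higher and 0 lower in both pairs, against 26.1% and 25.9% of all tested genes. EV replicate 4 was above EV replicate 5 in 18 of these 19. HLA genes are polymorphic and alike, so counts can be split between them.

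CXCL8 and CXCL1 rose among NF-kB targets and cytokines. CXCL8 (ENSG00000169429, chromosome 4, 73740506 to 73743716), the neutrophil chemokine interleukin-8, was at 116 CPM in EV and 170.4 in OE of pair 4, and 108 in EV and 119 in OE of pair 5, and rose (log2 change of 0.36, SE 0.060, adjusted p = 3.03e-06). CXCL1, a related chemokine, was at 141 CPM in EV and 169 in OE of pair 4, and 113 in EV and 128 in OE of pair 5 (log2 change of 0.22, SE 0.059, adjusted p = 0.0304). For CXCL8 both OE libraries lay above both EV libraries, whereas for CXCL1 OE of pair 5 was below EV of pair 4. They were 2 of 29 tested members past the threshold. In this list 17 were higher and 1 lower in both pairs and 11 went opposite ways, with medians of 0.16 and 0.10. Over all tested genes 26.1% were higher and 25.9% lower in both pairs, and 0.326% passed as higher. NFKBIA, the inhibitor that NF-kB itself induces, had log2 differences of 0.30 and 0.26 in the pairs, near in size but not past the threshold (adjusted p = 0.102), and LIF, an interleukin-6 family cytokine, of 0.25 and 0.17 (adjusted p = 0.241).

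Single genes of the stress responses rose. HMOX1 (ENSG00000100292, chromosome 22, 35380361 to 35394214), which breaks down haem, had the lowest p of all: it was at 273 CPM in EV and 417 in OE of pair 4, and 346 in EV and 423 in OE of pair 5. Both OE libraries lay above both EV libraries, with changes of 0.61 and 0.29 and a log2 change of 0.45, SE 0.050, adjusted p = 4.86e-15. No other of the 24 tested NRF2 targets passed, and the list's median was 0.031 in pair 4 and -0.00064 in pair 5. MT2A, a metal-binding metallothionein, rose in the fit (log2 change of 0.29, SE 0.046, adjusted p = 7.94e-07) on pair 4 alone: it was at 766 CPM in EV and 1129 in OE of pair 4, and 698 in EV and 706 in OE of pair 5. SLC30A1, the zinc exporter of the plasma membrane, fell (log2 change of -0.26, SE 0.057, adjusted p = 0.00200), with 185 CPM in EV and 142 in OE of pair 4, and 150.4 in EV and 136 in OE of pair 5, both OE libraries below both EV libraries.

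Among genes that answer to growth signals and damage, PPP1R15A (GADD34), which restarts translation after stress, rose (log2 change of 0.32, SE 0.068, adjusted p = 0.00134), at 61.3 CPM in EV and 88.4 in OE of pair 4, and 88.8 in EV and 97 in OE of pair 5. GADD45A, a p53 target that slows the cell cycle, rose to nearly the same extent in both pairs, 0.32 and 0.36, from 66.1 to 82.5 CPM and from 78.6 to 101 CPM (log2 change of 0.34, SE 0.069, adjusted p = 0.000616). Its 2 OE libraries exceeded its 2 EV libraries. JUN, a subunit of the AP-1 transcription factor, was at 242 CPM in EV and 295 in OE of pair 4, and 359 in EV and 387 in OE of pair 5. It rose by 0.20 (SE 0.051, adjusted p = 0.0275), less than it differed between EV libraries. FOSB, another AP-1 subunit (0.45 and 0.25), KLF4 (0.26 and 0.20) and ATF3 (0.82 and 0.24) were higher in OE in both pairs without passing (adjusted p of 0.374, 0.626 and 0.124). Of 24 tested immediate-early genes 1 rose, against 0.326% of all tested genes. In both pairs 15 were higher and 1 lower, against 26.1% and 25.9% of all tested genes. The medians of the list were 0.15 and 0.063. EV replicate 4 was below EV replicate 5 in 22 of these 24.

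The p53 targets counted 17 of 29 higher and 7 lower in both pairs, with GADD45A the only one past the threshold. For this list and the others here, the shares over all tested genes were 26.1% higher and 25.9% lower in both pairs. Past the threshold, 0.326% of all tested genes rose and 0.166% fell. EV replicate 4 was below EV replicate 5 in 25 of the 29 p53 targets. Among apoptosis regulators 16 of 28 were higher and 3 lower in both pairs, and none passed; FADD, the adaptor of death receptors, had log2 differences of 0.34 and 0.28 (adjusted p = 0.244), with 51.1% of its words shared with other genes. The unfolded protein and integrated stress response list had 21 of 41 higher and 6 lower in both pairs, with PPP1R15A alone past the threshold and medians of 0.041 and 0.036.

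Transcripts of the mitochondrial genome, which encode subunits of the respiratory chain, were lower together. Of 15 tested, 7 fell and none rose, against 0.166% and 0.326% of all tested genes. The 7 were MT-ATP6, MT-ND4, MT-ND2, MT-CO2, MT-CYB, MT-ND1 and MT-CO1. Their log2 changes ran from -0.22 to -0.15 and their edgeR adjusted p from 0.000172 to 0.0328. MT-CYB, MT-ND1 and MT-CO1 are outside the rule for named genes and were named after their values were seen. Nuclear copies share words with several of these, up to 49.5% for MT-CO1 and 46.7% for MT-ATP6. MT-ATP6, a subunit of ATP synthase, was at 3039.8 CPM in EV and 2546 in OE of pair 4, and 3639.5 in EV and 3208 in OE of pair 5. OE was below EV in each pair (-0.26 and -0.18), while OE of pair 5 was above EV of pair 4. MT-ND4, a subunit of complex I, was at 4508 CPM in EV and 4008 in OE of pair 4, and 5112 in EV and 4372 in OE of pair 5, with changes of -0.17 and -0.23 and both OE libraries below both EV libraries. The medians over the 15 were -0.10 in pair 4 and -0.22 in pair 5. In both pairs 10 were lower and 0 higher, against 25.9% and 26.1% of all tested genes. The share of all counts from the mitochondrial genome was 4.452% and 4.1% in EV and OE of pair 4, and 4.812% and 4.241% in pair 5. Less mitochondrial RNA per cell and a different make-up of the RNA that was sequenced cannot be told apart here. None of the 70 tested nuclear-encoded genes of oxidative phosphorylation passed; their medians were 0.064 and -0.016.

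Ribosomal protein genes passed mainly through pair 4. Of 79 tested, 7 rose and RPS3A alone fell, against 0.326% and 0.166% of all tested genes. In both pairs 18 (22.8%) were higher and 13 (16.5%) lower, and 48 went opposite ways. Over all tested genes 26.1% were higher and 25.9% lower in both pairs. RPS29 was at 78.1 CPM in EV and 149 in OE of pair 4, and 81.9 in EV and 77.4 in OE of pair 5, a change of 0.93 in pair 4 and -0.082 in pair 5 (log2 change of 0.45, SE 0.066, adjusted p = 5.39e-08). RPL38 (0.72 and -0.032) and RPL37A (0.60 and -0.023) had the same shape, and RPS28 was 0.59 and 0.049. In pair 5 none of these 4 differed by more than 0.1. RPS3A was lower in both pairs, -0.27 and -0.17, at 655 CPM in EV and 544 in OE of pair 4, and 741 in EV and 661 in OE of pair 5 (log2 change of -0.22, SE 0.047, adjusted p = 0.00200); 28.6% of its words are shared, as are 22.9% of those of RPS28 and 15.8% of those of RPL38. The 6 ribosomal protein genes with an mRNA under 500 bases had a median of 0.45 in pair 4 and -0.11 in pair 5. The 65 longer ones with a known length had 0.055 and -0.019. Of the risers, 2 were in the shorter class and 3 in the longer. Over these 71 genes, r of the change with log mRNA length was -0.175 in pair 4 and 0.0657 in pair 5. Lengths are those of the annotated principal transcript taken for each gene, which put RPL37A at 3647 bases and RPL37 at 7686.

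Over all genes of mean log2 CPM of at least 4, the shortest classes also had the highest medians in pair 4. Those under 500 bases (18 genes) had a median of 0.29 in pair 4 and -0.076 in pair 5, those of 500 to 750 bases (127 genes) 0.088 and -0.026, and those over 6000 bases (906 genes) -0.015 and -0.020. With length and GC content as an offset, 17 genes rose and 17 fell, 32 of them among the 71. IFI6, ISG15, OAS1, IRF7, HMOX1, CXCL8, GADD45A, MT2A, RPS29 and the 7 mitochondrial transcripts passed there too, while IFIT1, IFITM3, OAS3, PARP9, HLA-C, CXCL1, JUN, PPP1R15A and RPS28 did not. Nor did HELZ2 and PARP10, named above, or PIGB, RALGPS2, KIF14, ROMO1, DRAP1 and MRPL41, named below. The part of RNA integrity or library preparation in the length and GC trends was not tested.

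**Figure D3:**
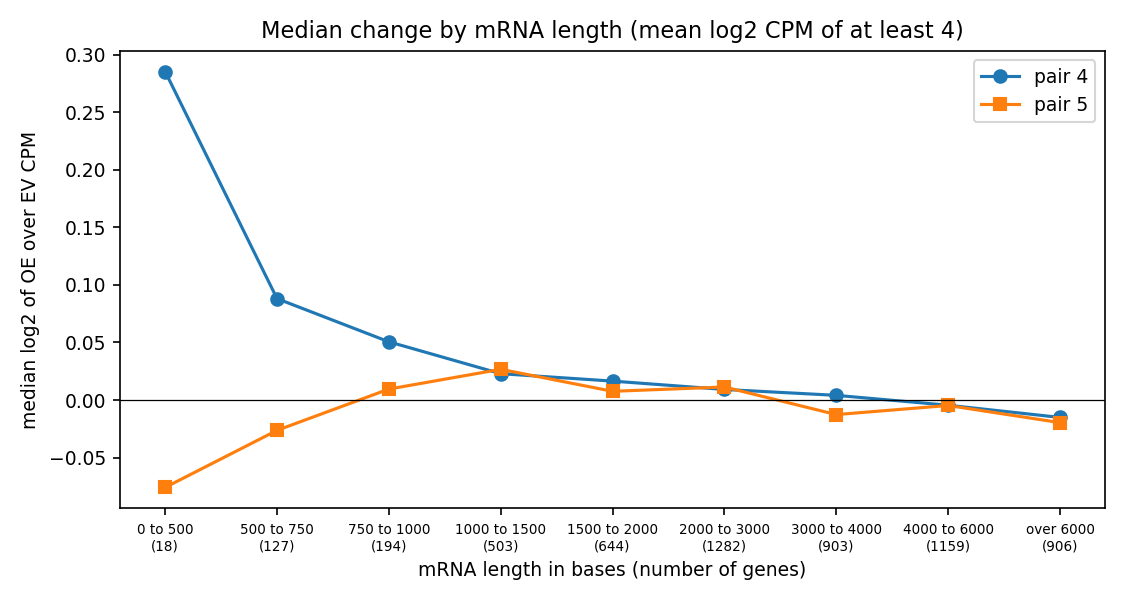
Median log2 of OE over EV CPM (vertical axis) by class of mRNA length (horizontal axis, number of genes in brackets), for genes of mean log2 CPM of at least 4, in pair 4 (blue circles) and pair 5 (orange squares). The shortest class stands at 0.29 in pair 4 and at -0.076 in pair 5, and both pairs are near 0 from 1500 bases on.

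Genes with the largest changes of one direction in both pairs were mostly of low to moderate level. AC004556.1 (ENSG00000276345, scaffold KI270721.1, 2585 to 11802), annotated as protein-coding and named only by its clone, was at 34.8 CPM in EV and 54.4 in OE of pair 4, and 31.2 in EV and 56.2 in OE of pair 5. Its changes were 0.64 and 0.84, its groups did not overlap, and the fit gave a log2 change of 0.74, SE 0.091, adjusted p = 1.96e-12. No 50-base words were available for AC004556.1, so sharing with other genes could not be checked. XDH, xanthine dehydrogenase of purine breakdown, was at 15.5 CPM in EV and 22.4 in OE of pair 4, and 7.70 in EV and 11.8 in OE of pair 5 (log2 change of 0.57, SE 0.15, adjusted p = 0.0282), with the EV library of pair 4 above the OE library of pair 5. KANTR, annotated as protein-coding in GENCODE 29, had the largest smaller-of-the-pairs rise among genes of mean log2 CPM of at least 2, 0.92 and 0.90, at 2.87 CPM in EV and 5.55 in OE of pair 4, and 3.40 in EV and 6.43 in OE of pair 5, and did not pass (adjusted p = 0.0602). PDGFRL, a receptor-like protein (0.50 and 0.98), and RPP14, a subunit of RNase P (0.54 and 0.49), were among the other genes named by that measure that did not pass. RPP14 shares 22.6% of its 50-base words with other genes.

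Downward, PIGB, an enzyme of glycosylphosphatidylinositol anchor synthesis, fell (log2 change of -0.56, SE 0.15, adjusted p = 0.0257) at 19.6 CPM in EV and 11.9 in OE of pair 4, and 14.9 in EV and 11.3 in OE of pair 5; 10.9% of its words are shared, mostly with its neighbour CCPG1. NOX5, a calcium-regulated NADPH oxidase, fell by more in pair 4 than in pair 5, -0.64 and -0.13, at 104 CPM in EV and 66.9 in OE of pair 4, and 136 in EV and 124 in OE of pair 5 (log2 change of -0.37, SE 0.063, adjusted p = 4.29e-06). RALGPS2, an exchange factor for Ral GTPases, fell (log2 change of -0.24, SE 0.066, adjusted p = 0.0430), with -0.31 and -0.18 in the pairs. VKORC1, which recycles vitamin K, was at 10.6 CPM in EV and 6.62 in OE of pair 4, and 10.8 in EV and 7.66 in OE of pair 5, a log2 difference of -0.67 and -0.49; 64.4% of its words are shared with other genes. DEPTOR, an inhibitor of mTOR, was at 17.6 CPM in EV and 12.4 in OE of pair 4, and 13.7 in EV and 9.88 in OE of pair 5, a log2 difference of -0.50 and -0.46. Neither passed (adjusted p of 0.157 and 0.153), although in each the groups did not overlap.

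Other risers with one direction in both pairs were ROMO1, a mitochondrial inner membrane protein (0.60 and 0.19), and THOC3, of the mRNA export complex (0.071 and 0.69), which shares 56.1% of its words with other genes. DRAP1, a transcriptional corepressor (0.24 and 0.17), and MRPL41, a mitochondrial ribosomal protein (0.27 and 0.25), also rose with non-overlapping groups, and were named after their values were seen. CENPF and KIF14, of the mitotic spindle and kinetochore, rose on pair 5: CENPF was at 289 CPM in EV and 298 in OE of pair 4, and 209 in EV and 285 in OE of pair 5 (log2 change of 0.24, SE 0.052, adjusted p = 0.00171) and KIF14 changed by 0.068 and 0.52. They were the 2 of 40 tested G2/M genes past the threshold. Over all 40, 7 (17.5%) were higher in both pairs, these 2 among them, and 13 (32.5%) were lower in both. The shares over all tested genes were 26.1% and 25.9%, and 0.326% passed as higher.

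Several of the largest fold changes belong to genes with near-identical copies, so that their counts are uncertain. IKBKGP1, a copy of IKBKG (100% of words shared), was at 2.93 CPM in EV and 0.418 in OE of pair 4, and 6.67 in EV and 1.17 in OE of pair 5, with a log2 change of -2.61, SE 0.39, adjusted p = 8.61e-08. Its parent, IKBKG, stood at 17.3 and 15.8 CPM in pair 4 and at 19 and 15.4 in pair 5, so that the sum of both genes was 20.2 and 16.2, then 25.7 and 16.6. RGPD5 (93.4% shared, mostly with RGPD6) was at 2.12 CPM in EV and 0.418 in OE of pair 4, and 5.58 in EV and 1.11 in OE of pair 5. U2AF1L5 (94.3% shared, mostly with U2AF1) went opposite ways by 1.79 and -3.22, at 12.6 CPM in EV and 43.9 in OE of pair 4, and 61.4 in EV and 6.49 in OE of pair 5, and still passed (log2 change of -0.54, SE 0.12, adjusted p = 0.00423). SMIM11A (99.7%), AC126755.1 (94.1%) and MTATP6P1, a nuclear copy of mitochondrial sequence, belong to the same class, and MTATP6P1 passed on pair 4 (0.91 and -0.085) while MT-ATP6 fell. KRT87P, a keratin pseudogene, rose in both pairs (1.91 and 1.74) from 17 to 67 counts and from 23 to 89. PRSS53, the neighbour of VKORC1, had 1 and 11 counts in pair 4 and 0 and 14 in pair 5, too few for a fold. In all 17 of the 71 genes are annotated as pseudogenes.

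The remaining lists held no gene past the threshold. Thyroid differentiation had 7 tested members of 21, 1 (14.3%) higher and 4 (57.1%) lower in both pairs. MAPK pathway output (19 tested), RET and receptor tyrosine kinases (19), mesenchymal genes (18), TGF-beta targets (24), YAP/TAZ targets (23), heat shock (25), hypoxia and glycolysis (36), cholesterol and fatty acid synthesis (34) and G1/S and DNA replication (38) had medians between -0.041 and 0.065 in the pairs. CYR61, a YAP target, was nearest to the threshold among these (0.22 and 0.13, adjusted p = 0.0583). The replication-dependent histones stood on opposite sides of 0 in the pairs, with medians of 0.19 and -0.24 over 17 genes of low count. Of the 13 tested genes around PTCSC3 on chromosome 14, which include NFKBIA, none passed. In both pairs 4 (30.8%) were higher and 5 (38.5%) lower. Over all tested genes 26.1% were higher and 25.9% lower in both pairs, and 0.492% passed.

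**Figure D4:**
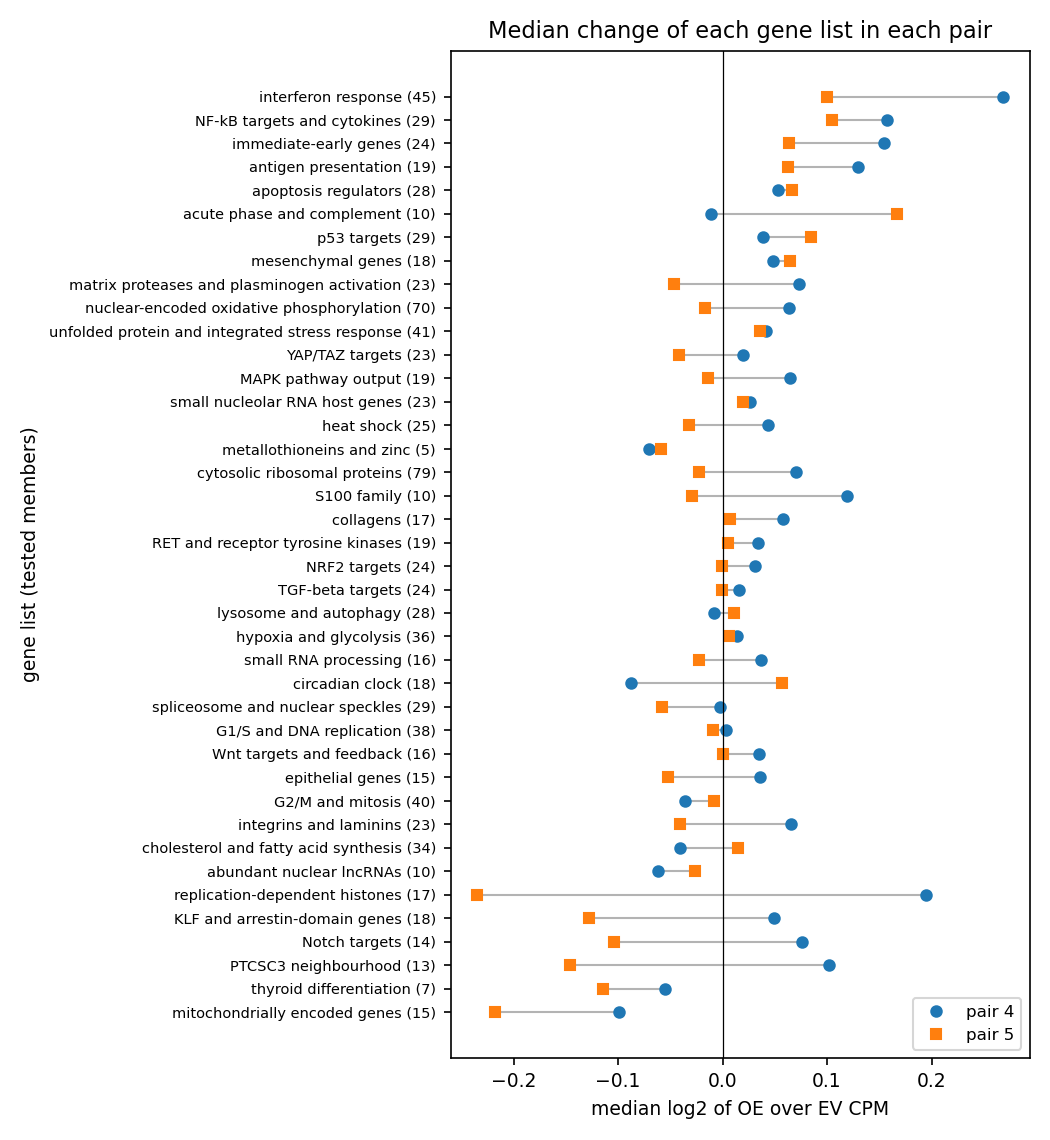
Median over the tested members of each of 40 gene lists (vertical axis, tested members in brackets) of the log2 of OE over EV CPM (horizontal axis), in pair 4 (blue circles) and pair 5 (orange squares), 1 library per group in each. Interferon response, NF-kB targets and immediate-early genes are above 0 in both pairs, mitochondrially encoded genes are below 0 in both, and histones lie at 0.19 and -0.24.

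Whether the pairs themselves differed was tested with the spread of the first set (replicates 1 to 3), assuming that lone libraries vary like those. Of 15404 genes, 0 (0%) passed at an adjusted p under 0.05 by edgeR and 200 had an unadjusted p under 0.05. With 1 library on each side, the median SE of such a difference was 0.383. The difference was -1.01 for RPS29 (unadjusted p = 0.115) and -0.99 for MTATP6P1 (unadjusted p = 0.00581).

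The 71 genes were called with the pair as a block, and 0 genes of the second set passed without it. The first set, 3 EV against 3 OE libraries of the same line, was fitted without a block. It called 5 of 14340 genes (0.0349%), none of them among the 71. Of the 71 genes, 39 (54.9%) had the same direction there, as had 54.6% of the 11110 genes of mean log2 CPM of at least 2. The first set had an unadjusted p under 0.05 for 15 of the 71, 8 of them in the same direction. IFI6 was higher in both sets: it measured 154 ± 26.5 CPM in EV and 232 ± 29 in OE in the first set (SD, n = 3, scaled over all 10 libraries), a log2 change of 0.59 (SE 0.14; first-set adjusted p = 0.351). XDH was 9.39 ± 2.15 CPM in EV and 12.8 ± 0.782 in OE there (0.44, SE 0.18). The mitochondrially encoded genes were lower in OE in the first set in 15 of 15, with a median of -0.16, none past the threshold. The antigen-presentation genes were higher in OE there in 18 of 19, with a median of 0.171. HLA-C had a first-set log2 change of 0.40 (SE 0.12, edgeR adjusted p = 0.427).

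Other groups were on the other side in the first set. Of the 45 interferon genes 31 were lower in OE and 14 higher there, with a median of -0.098. Of the 29 p53 targets 23 were lower and 6 higher there, with a median of -0.232. HMOX1 was 1109 ± 100.4 CPM in EV and 845 ± 134 in OE (-0.39, SE 0.12), against a rise of 0.45 in the second set. GADD45A was 173 ± 26.4 CPM in EV and 90.5 ± 9.27 in OE (-0.93, SE 0.13), with all 3 OE libraries below all 3 EV libraries. In both HMOX1 and GADD45A the EV libraries of the first set stood well above those of the second, where HMOX1 was at 271 and 344 CPM and GADD45A at 65.6 and 78.1 on that scaling. NOX5 was 353 ± 8.86 CPM in EV and 472 ± 35.4 in OE in the first set (0.42, SE 0.087) and fell in the second.

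The difference between the sets was tested as an interaction, and ATF3 alone of 15404 genes passed (0.00649%; difference of 2.04, SE 0.23, edgeR adjusted p = 0.0113). ATF3 was 31.3 ± 1.81 CPM in EV and 11.2 ± 1.40 in OE in the first set. In the second it was at 8.59 and 15.3 CPM in pair 4 and 9.88 and 11.7 in pair 5, so that OE libraries of both sets were alike and the EV libraries differed. For GADD45A the difference was 1.27 (SE 0.21, adjusted p = 0.173), for HMOX1 0.83 (adjusted p = 0.9996) and for OAS1 0.82 (adjusted p = 0.9996), none of which passed. Set and what else separates the deposited tables cannot be told apart.

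**Figure D5:**
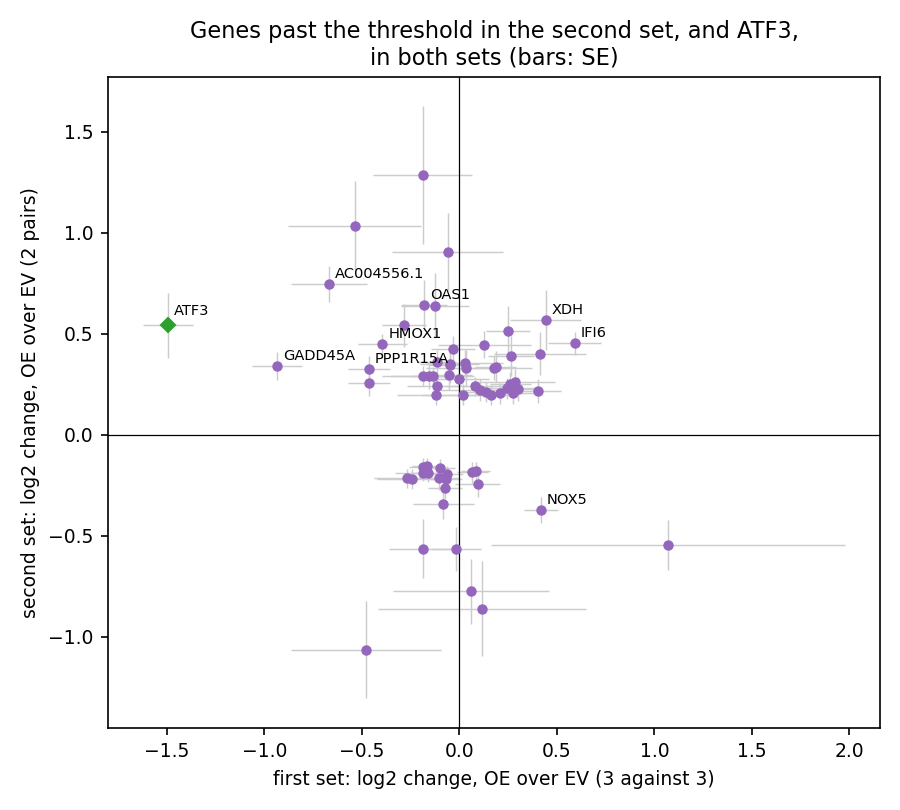
Log2 change of OE over EV in the second set (vertical axis, 2 pairs) against the first set (horizontal axis, 3 against 3 libraries), with SE bars, for 66 of the 71 genes (the 5 with a second-set change of 1.3 or more in size are not drawn) and for ATF3 (green diamond). Points fill all 4 quadrants; IFI6 and XDH lie in the upper right, and ATF3, GADD45A, AC004556.1 and HMOX1 in the upper left.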

How the data were processed

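RNA of the 4 libraries of the second deposited table was analysed, with the 6 libraries of the first table for comparison. The submitters' processing notes name the build hg38, the aligner HISAT2 2.0.5 and the counter featureCounts 1.5.0-p3, beside CASAVA 1.8, fastp and DESeq2 1.20.0; step order, annotation release and strand setting were not given in the sources used here. What the authors deposited, per the file headers, is a raw count per gene and library, for 58735 genes. The 14 per-library columns of normalized values and the 6 deposited comparison columns were not used. Gene identifiers were those deposited with the counts. They were matched to GENCODE 29, from which mRNA length, GC content (99.97% of tested genes) and shared 50-base words were computed.

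Counts were fitted in edgeR 4.0.16 (R 4.3.3) with TMM scaling, the filterByExpr filter by group, the pair as a block and Benjamini-Hochberg adjustment over all tested genes. The first set alone was fitted without a block. CPM are TMM-scaled; SE are those implied by the test. DESeq2 1.42.0, limma 3.58.1 (voom), other scalings, filters and fits were alternatives. The median SE was 0.119. The script was tested on simulated data. The replicates were distinct libraries: chi-square divided by its degrees of freedom was 11.16 between the EV and 12.58 between the OE replicates. The pairing follows from the numbers alone. The difference of EV replicate 4 from EV replicate 5 correlated with that of the OE replicates at r = 0.323 across all 14419 tested genes. This r was 0.541 across the 11110 genes of mean log2 CPM of at least 2.

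The pairs, the 40 function and 6 marker lists (1221 of 1222 members matched) and the tests were chosen with earlier results of these data known. Named genes are those with a symbol that are not processed pseudogenes: up to 12 per direction by the smaller of the pair changes (mean log2 CPM of at least 2), up to 12 per direction by log2 change among genes past the threshold with one direction in both pairs, up to 4 per list by lowest p, up to 5 per direction past the threshold of the pair or set difference, and the tested genes around PTCSC3. Others are said to be named after their values were seen.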

Additional observations from a re-analysis of the deposited data

Results flagged for a closer look

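Among genes named above, ATF3 changed differently in the sets by the interaction test, with a difference (second set minus first set, log2) of 2.04 and adjusted p = 0.0113.

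The others below were on opposite sides of 0 in the sets: both pairs of the second set went one way, and all 3 OE libraries of the first set lay beyond all 3 EV libraries the other way. None of these differences passed the interaction test. With higher values in OE of the second set, the difference was 1.41 for AC004556.1 (unadjusted p = 0.000202), 1.27 for GADD45A (3.37e-05), 0.87 for IRF7 (0.109), 0.83 for HMOX1 (0.00101) and 0.82 for OAS1 (0.201). It was 0.78 for IFIT1 (0.163), 0.77 for PPP1R15A (0.00296), 0.58 for KLF4 (0.0290), 0.47 for PLSCR1 (0.134) and 0.33 for CYR61 (0.0167). With lower values in OE of the second set, it was -1.31 for VKORC1 (0.000610) and -0.75 for NOX5 (0.0179). Adjusted p over all genes ran from 0.173 to 0.9996 for these 12 genes.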

How the results depend on the processing

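No gene passed without the replicate block (0 higher, 0 lower), with the spread of all 10 libraries, either with the number as a replicate block (0 and 0) or the set as a term (0 and 0), or in pair 4 or pair 5 alone (0 and 0 in each, chosen after seeing the data). DESeq2 called 2 higher and 0 lower, and the GC and length offset with the replicate block 17 and 17. RLE scaling, limma-voom, no filter and a stricter filter kept the counts within 1.5 times. Leaving out any library, which also drops the block, left 0 and 0. Genes with both changes of 0.25 or more numbered 128 higher and 109 lower under the stricter filter, and 162 and 176 at a size of 0.5, beside 187 and 338 opposite; the scaling and prior count moved them little. The set difference called 3 genes with the number as a replicate block, and the pair difference 0 under each alternative. Leaving out 1 library, without the block, turned the sign of named genes, the range over the 4 being -0.33 to 1.2 for IFI6, -0.66 to 1.27 for ISG15, -0.45 to 1.69 for OAS1, -0.38 to 1.27 for IRF7, -0.71 to 1.04 for IFIT1, -0.18 to 0.54 for IFITM3, -0.31 to 0.65 for OAS3, -0.40 to 0.90 for PARP9, -0.18 to 0.68 for PLSCR1, -0.086 to 0.60 for HELZ2, -0.086 to 0.54 for PARP10, -0.090 to 0.50 for HLA-C, -0.053 to 0.62 for MT2A, -0.073 to 0.49 for JUN, -0.063 to 0.49 for KLF4, -0.31 to 0.0076 for MT-CO1, -0.048 to 0.89 for RPS29, -0.020 to 0.71 for RPL38, -0.85 to 0.046 for NOX5 and -2.50 to 0.99 for U2AF1L5. Of single pairs, RPS29 was -0.082 in pair 5, RPL38 was -0.033 in pair 5, RPL37A was -0.023 in pair 5, SMIM11A was -0.020 in pair 4, U2AF1L5 was 1.8 in pair 4 and MTATP6P1 was -0.085 in pair 5, against the direction of the fit. The cause was not tested. With 2 libraries per group, the 95% interval of the change lay wholly within 2-fold for 82.3% of tested genes and within 1.5-fold for 70.5%. These intervals rest on the spread common to all genes, so a gene's own disagreement between pairs hardly enters them.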
